A study of Rattus norvegicus with 59 samples.

Results

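The lungs of male Fischer 344 rats (F344/DuCrl) were examined 9 months after they had breathed air with or without crystalline silica, a dust of quarries and foundries known for silicosis. The comparison rests on 9 of the 59 libraries of the series, chosen by their labels: all 5 silica libraries and all 4 air libraries of the 9-month time, with 1 rat per library. The rats were 3 months old at purchase and spent 6 h per day on 5 days in a whole-body inhalation chamber, with silica at 15 mg/m3 or with air alone. Total RNA came from a piece of the lung, so each value averages over every cell type that the piece held, and how the piece was chosen is not given in the sources used here. Rats are called silica rats 1 to 5 and air rats 1 to 4 in the order of deposit. The numbers name a rat and pair nothing.

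Inhaled silica particles are taken up by alveolar macrophages, which cannot digest them, and the injured cells release signals that draw neutrophils and further macrophages into the airspaces. Alveolar type 2 cells, which make surfactant and renew the alveolar lining, respond by enlarging and multiplying, and lipid and protein collect in the alveoli. Over months granulomas and fibrosis can follow, and the capillary bed that surrounds the alveoli can be remodelled. The 9-month comparison asks how far these compartments differed from those of air rats of the same time, long after the last exposure.

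The values are FPKM, fragment numbers divided by gene length and library size, in a table that covers nearly only chromosome 1: of 2061 gene names found in RefSeq, 2046 (99.3%) lie there. Genes elsewhere were not analysed here. Of 2887 complete entries, 1278 had 4 or more of the 59 libraries at an FPKM of 1 or above and were tested with limma on log2(FPKM + 0.5). A gene is called when its Benjamini-Hochberg adjusted p, over all 1278, is under 0.05. A log2 change of 1 is a doubling on that scale, which understates changes of low genes.

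The 2 groups overlapped in their general measures. The FPKM of all entries but LOC102553223 summed to 13790 to 14813 in silica and to 12770 to 14998 in air (exact two-sided permutation p = 0.286, n = 5 and 4, where 0.0159 is the smallest p possible). Air rats 1 and 3 had the lowest sums of the 9, 12770 and 12795. In air rat 3 the entry LOC102553223 alone stood at 25818 FPKM, against 239 to 1788 in the other air libraries and 286 to 704 in silica. Relative depth was inferred from entries detected in 3 to 15 of the 59 libraries, by aligning nonzero values to each entry's median. It was lowest in air rat 1 (0.432) and silica rat 4 (0.471) and 1.12 to 1.71 in the other 7 libraries. Within groups, 16 library pairs had correlations across genes of r = 0.912 to 0.970.

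At 9 months 393 of the 1278 tested genes (30.8%) differed between silica and air, 249 higher (19.5%) and 144 lower (11.3%) in silica. The rises were the larger changes: of 26 genes with a called change of log2 1 or more (2.03%), 25 rose and 1 fell. Among called genes the median change was 0.43 for rises and -0.39 for falls, beside a median of 0.038 over all tested genes. The silica libraries all exceeded the air libraries for 204 genes (16.0%) and all fell below them for 110 (8.61%), 314 genes (24.6%) in all. Without air rats 1 and 3, a setting added after the data were seen, 265 genes were called, 137 higher and 128 lower. The balance between the directions depends on scaling and on which air rats are used. Rises were 63.4% of the calls as deposited, 54.2% after centring each library on its median and 45.8% after quantile normalization. Without air rats 1 and 3, at the deposited scale, they were 51.7%. In bulk RNA, fewer cells of a type and less RNA per cell cannot be told apart, and this holds for each group of genes described here.

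**Figure D1:**
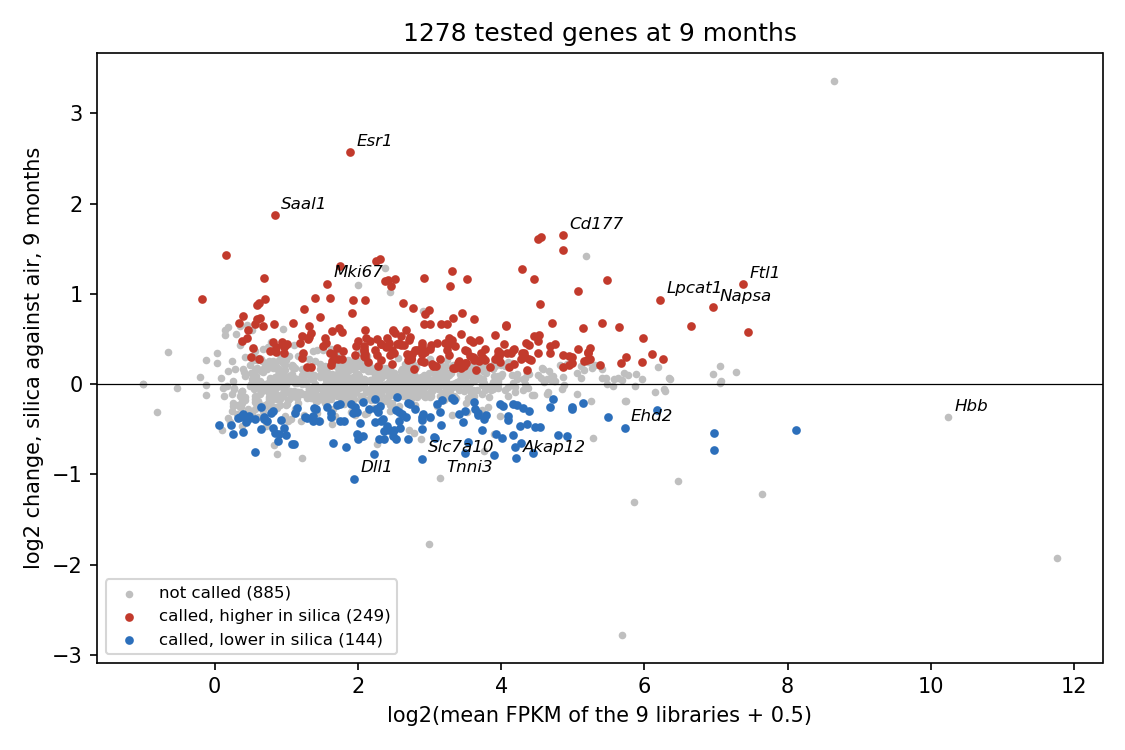
Log2 change in silica against air at 9 months (vertical axis) against the level of each gene, log2 of its mean FPKM over the 9 libraries plus 0.5 (horizontal axis), for the 1278 tested genes. Red points are the 249 genes called higher in silica, blue points the 144 called lower, and grey points the rest. Esr1 and Saal1 stand highest among the called genes and Dll1 lowest, and Tnni3 and Hbb are grey although their changes are below 0.

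The largest called rise was that of Esr1, which encodes estrogen receptor alpha, a hormone-activated transcription factor. Its FPKM was 3.70, 3.58, 5.70, 6.78 and 7.23 in silica rats 1 to 5 and 0.494, 0.334, 0.508 and 0.50 in air rats 1 to 4. The lowest silica rat was far above the highest air rat, and silica rats 4 and 5 were the highest. The fitted fold of 5.95 equals a log2 difference of 2.57 ± 0.29 (SE), with a limma adjusted p of 7.31e-09. As the air values are low, the size depends on the pseudocount, at 2.09 with 1 and 3.25 with 0.1. Next came Saal1, named for its likeness to serum amyloid A, at 1.01, 1.75, 1.89, 2.29 and 3.91 FPKM in silica and 0.0743, 0.244, 0.344 and 0.114 in air. The groups did not overlap, and silica rat 5 was the highest (log2 1.87 ± 0.25, SE; limma adjusted p = 1.48e-07). Rspo3, a secreted amplifier of Wnt signalling, rose by log2 1.18, from 0.457 ± 0.271 (SD, n = 4) to 1.65 ± 0.476 (SD, n = 5) FPKM. All air values of Esr1, Saal1 and Rspo3 lie under 1 FPKM.

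Genes of neutrophils and other granulocytes rose in 7 of the 11 tested members and none fell, where 19.5% of all tested genes rose and 11.3% fell. These shares are the background for the counts of every list below. The lists were chosen with earlier results of these data known, so counts beyond these shares may reflect that choice and are not a test. The median of the 11 was 0.78. Cd177, a surface glycoprotein of neutrophils, stood at 36.8, 40.5, 39.8, 42.7 and 45.5 FPKM in silica rats and at 11.4, 12.5, 11.2 and 16.5 in air rats. All silica values were more than double every air value, and the fold was 3.13 (log2 1.65 ± 0.24, SE; limma adjusted p = 8.44e-07). The placeholder entries LOC100909700 and LOC103691058 followed Cd177 over the 59 libraries (r = 0.999 and 0.990) and LOC103689942 followed Ceacam10 (0.999), so the split of reads between such copies is uncertain. Ceacam10, of the carcinoembryonic antigen family, rose from 2.11 ± 0.212 (SD, n = 4) to 6.37 ± 0.833 (SD, n = 5) FPKM (log2 1.39). Itgam, the alpha chain of the complement receptor integrin of neutrophils and macrophages, rose by 1.17, Plaur, the urokinase receptor, by 1.09 and Fcar, a receptor for IgA, by 0.90. The other rises of the list were the complement C5a receptor genes C5ar1 (0.78) and C5ar2 (0.46, with limma adjusted p = 0.0508 without air rats 1 and 3).

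Not every granulocyte gene moved with them. Pglyrp1, a bactericidal protein of neutrophil granules, stood at 2.26, 1.59, 0.929, 0.518 and 0.789 FPKM in silica and 1.15, 1.79, 1.33 and 1.44 in air (log2 -0.25, limma adjusted p = 0.501). The silica values spanned the air values from below to above. Adam8, a membrane protease of granulocytes, had a change of -0.29 (limma adjusted p = 0.116), and Itgad and Ceacam1 had -0.15 and -0.18, also short of the threshold. Adam8 was called lower without silica rat 1 or 2 (limma adjusted p = 0.0319 and 0.0252), and Ceacam1 after median centring and quantile normalization (0.0385 and 0.0249). The formyl peptide receptor genes Fpr1, Fpr2 and Fpr3 were too low to be tested. The list's summed FPKM was 89.9 to 105 in silica and 46.7 to 58.4 in air.

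Receptors and adaptors of myeloid cells rose in 12 of 17 tested members, with none lower and a median of 0.46. Without air rats 1 and 3 the count was 8. The 12 include Itgam, C5ar1, C5ar2 and Fcar, already counted among the granulocyte genes, so these lists are not separate. Lilrb4, an inhibitory receptor of macrophages and dendritic cells, stood at 28.1, 26.0, 35.8, 33.5 and 37.2 FPKM in silica rats and at 9.62, 12.0, 7.61 and 11.8 in air rats. The groups were far apart, with a fold of 3.05 (log2 1.61 ± 0.20, SE; limma adjusted p = 5.22e-08). Cd33, a sialic acid binding inhibitory receptor, rose by 1.16, from 2.89 ± 0.679 (SD, n = 4) to 7.11 ± 1.60 (SD, n = 5) FPKM. Tyrobp, the adaptor that passes on signals of many activating myeloid receptors, was the most abundant of the list, at 104 to 134 FPKM in silica and 60.8 to 85.9 in air (0.65). Itgax, whose integrin marks alveolar macrophages and dendritic cells, rose by 0.60. Siglec5 (0.05), Lilra5 (0.07), Cd163l1 (0.06) and the adaptor gene Hcst (0.05) had differences smaller than 0.1 with overlapping groups, none past the threshold.

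**Figure D2:**
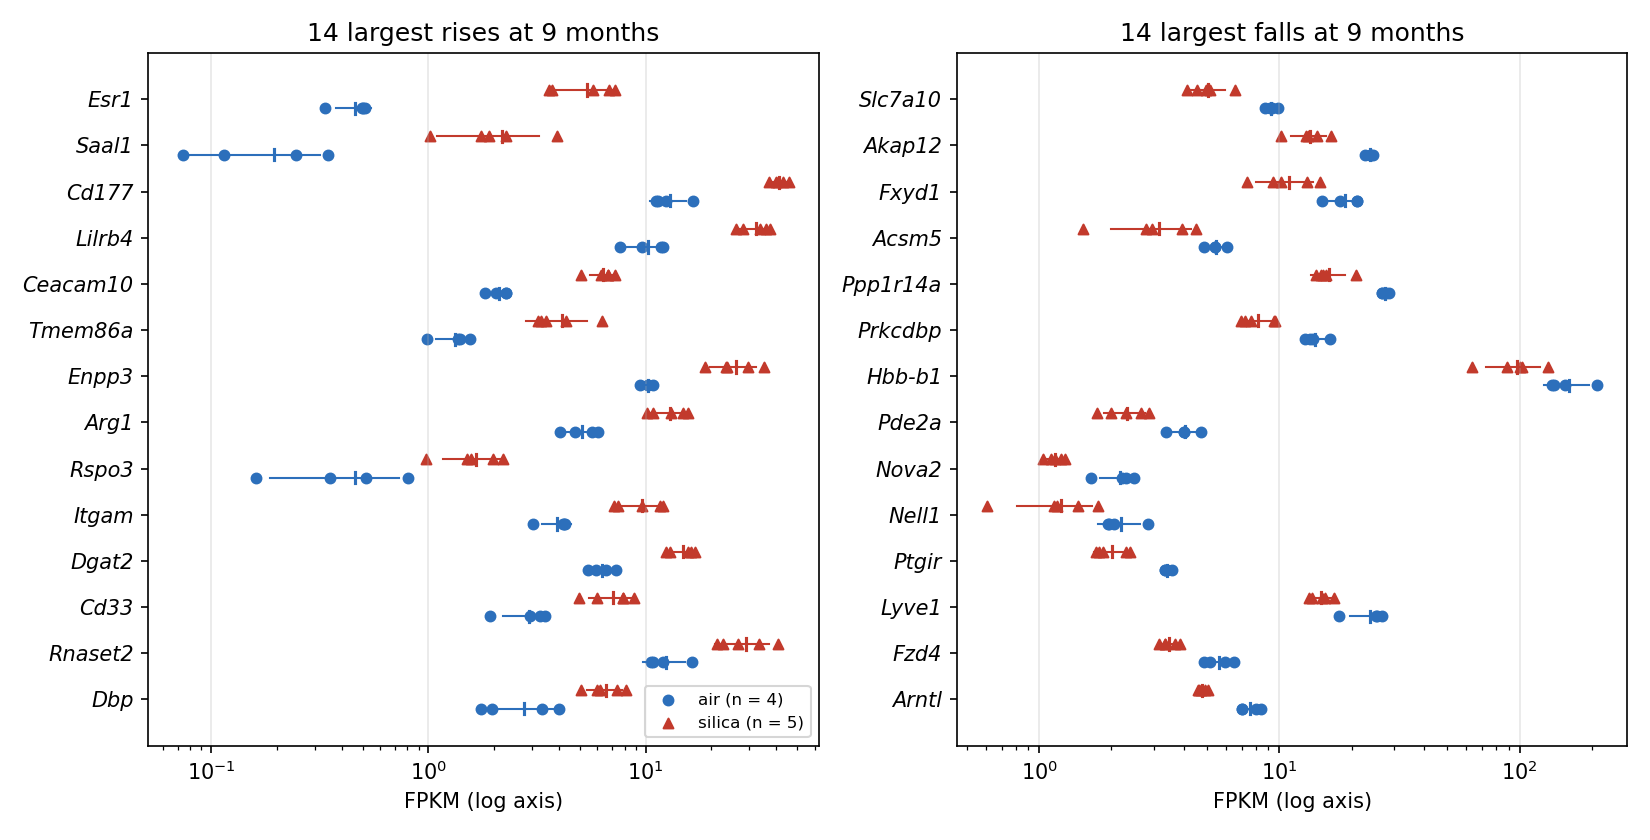
FPKM on a log axis in each 9-month library for the 14 largest called rises (left) and the 14 largest called falls (right) among named genes without overlap between groups. Triangles are silica rats (n = 5) and circles air rats (n = 4), with a tick at the mean and a line of 1 SD to either side. Silica lies wholly right of air on the left panel and wholly left of it on the right panel, as the choice of genes requires, and the gap is widest for Esr1.

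Lysosome and peptidase genes rose alongside, and the cell type behind these rises was not tested. Of 10 tested lysosome and peptidase genes 7 rose and none fell (median 0.36), and after quantile normalization 6 rose and 1 fell. Tmem86a, an enzyme that cleaves plasmalogen lysolipids, rose by log2 1.30, from 1.33 ± 0.243 (SD, n = 4) to 4.11 ± 1.29 (SD, n = 5) FPKM, and silica rat 4 was its highest library at 6.29. Rnaset2, a lysosomal ribonuclease that was on no list, stood at 21.2, 22.7, 26.6, 40.6 and 33.3 FPKM in silica and 10.6, 12.0, 10.9 and 16.4 in air. Silica rats 4 and 5 were its highest (1.16 ± 0.21, SE; limma adjusted p = 2.24e-05). The carboxypeptidase gene Prcp rose by 0.79, the membrane aminopeptidase gene Anpep by 0.67 and Hps5, a gene of lysosome-related organelle formation, by 0.37. Smpd1, the acid sphingomyelinase, had the same mean of 19.7 FPKM in both groups.

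Of 8 tested oxidant and iron genes 5 rose and none fell (median 0.71), where 19.5% of all tested genes rose and 11.3% fell. Arg1, arginase, which competes with nitric oxide synthase for arginine, stood at 10.1, 10.8, 13.0, 15.6 and 14.9 FPKM in silica against 4.04, 6.02, 4.71 and 5.67 in air. The groups were well separated (1.25 ± 0.19, SE; limma adjusted p = 2.42e-06). Sod2, the mitochondrial superoxide dismutase, rose from 26.0 ± 3.68 (SD, n = 4) to 58.4 ± 7.96 (SD, n = 5) FPKM (log2 1.15). Ftl1, the ferritin light chain that stores iron, reached 166, 179, 225, 256 and 268 FPKM in silica and 97.7, 98.1, 112 and 90.0 in air. No libraries overlapped, and silica rats 4 and 5 were again the highest (1.11 ± 0.17, SE; limma adjusted p = 2.32e-06). The smaller rises, Ucp2 at 0.40 and Blvrb at 0.28, had overlapping groups. Both missed the threshold without air rat 1 (limma adjusted p = 0.0863 and 0.0910), Ucp2 without air rat 2 and Blvrb without air rat 4 (0.0563 and 0.050), and both after quantile normalization, which left the list at 3 rises. Without air rats 1 and 3 it also had 3, with a median of 0.46. Hpx, which binds free heme, stood at 3.39 to 13.1 FPKM in silica and 1.23 to 3.99 in air (1.02, limma adjusted p = 0.0803, and 0.0479 without silica rat 1).

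Lipid genes of macrophages gave a divided picture. Dgat2, the last enzyme of triglyceride synthesis, stood at 12.9, 12.4, 15.6, 17.0 and 16.2 FPKM in silica rats and at 6.60, 7.29, 5.45 and 5.93 in air rats. No groups touched (1.17 ± 0.16, SE; limma adjusted p = 5.56e-07). Apoe, the apolipoprotein that carries cholesterol out of macrophages, had overlapping groups at 204 ± 49.0 (SD, n = 5) and 134 ± 20.8 (SD, n = 4) FPKM and a change of 0.58 (limma adjusted p = 0.0267), which missed the threshold without air rat 1, 3 or 4 or silica rat 4 or 5 (0.0543 to 0.105). Mfge8, a bridge for the uptake of dying cells, fell by 0.29. Counting these and Tmem86a, already described, 3 of 8 tested genes of the list rose and 1 fell, with a median of 0.63. Without air rats 1 and 3, 2 rose and 2 fell, with a median of 0.34, and after median centring or quantile normalization 3 rose and 2 fell.

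Enzymes and receptors of extracellular nucleotides moved in both directions. Enpp3, an ectoenzyme that cleaves extracellular nucleotides, rose from 10.8, 10.3, 9.46 and 10.3 FPKM in air to 18.8, 23.7, 23.4, 29.5 and 34.9 in silica. Air rats were close together and every silica rat was above them (1.28 ± 0.17, SE; limma adjusted p = 2.12e-07). P2ry2, a receptor for ATP and UTP that guides phagocytes to dying cells, rose by 1.08 from 5.53 ± 0.729 (SD, n = 4) to 12.3 ± 1.31 (SD, n = 5) FPKM, and P2ry6, a receptor for UDP, by 0.47. Enpp1, a relative of Enpp3 that makes pyrophosphate, went the other way. It stood at 3.90, 3.88, 3.76, 3.95 and 3.84 FPKM in silica and 5.29, 5.28, 5.35 and 5.24 in air, and both groups were narrow (-0.41 ± 0.07, SE; limma adjusted p = 6.57e-06).

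Genes related to alveolar type 2 cells rose in all 3 tested members, with a median of 0.85. Lpcat1, which remodels the phosphatidylcholine of surfactant, stood at 77.4, 86.5, 87.3, 114 and 108 FPKM in silica rats and at 49.6, 48.4, 49.0 and 47.7 in air rats. The air rats were nearly equal and the silica rats 4 and 5 the highest (0.94 ± 0.11, SE; limma adjusted p = 7.31e-09). Napsa, the protease that processes surfactant protein precursors, stood at 138, 144, 148, 164 and 181 FPKM in silica and 82.1, 86.0, 84.1 and 89.0 in air, again without overlap (0.85 ± 0.12, SE; limma adjusted p = 5.56e-07). Cebpa, a transcription factor of type 2 cells that also serves myeloid cells and fat cells, rose by 0.54. The summed FPKM of the 3 was 230.4 to 306 in silica and 143 to 147 in air.

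Among genes of the airway and surface epithelium 4 of 9 rose and none fell (median 0.27, and 0.17 without air rat 3). Over all tested genes 19.5% rose and 11.3% fell. Cxcl17, a mucosal chemokine, rose by 0.64, from 37.5 ± 2.47 (SD, n = 4) to 59.1 ± 7.73 (SD, n = 5) FPKM, and Spint2, an inhibitor of membrane proteases, by 0.51. The sodium channel subunit gene Scnn1b (0.44) and Prss8, a protease that activates that channel (0.27), lost their calls without air rats 1 and 3 (limma adjusted p = 0.0959 and 0.224), which left 2, and Prss8 also without air rat 1 alone (0.0787). Club cell genes did not rise with them. Cyp2f4, a cytochrome P450 of club cells, stood at 19.3, 15.5, 12.8, 2.09 and 6.44 FPKM in silica and 19.0, 16.3, 13.8 and 12.9 in air (-0.74, limma adjusted p = 0.164). Cyp2a3 had the same shape, with 1.41 and 5.59 FPKM in silica rats 4 and 5 against 16.1 to 24.0 in silica rats 1 to 3 and 10.9 to 20.9 in air. For both genes the low values belonged to silica rats 4 and 5 alone.

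Heart muscle genes, which reach lung samples through the sleeves of pulmonary veins, were lowest in those 2 rats as well. Tnni3, cardiac troponin I, stood at 19.7, 7.61, 6.53, 0.192 and 2.32 FPKM in silica and 14.1, 9.69, 5.61 and 9.05 in air (-1.04, limma adjusted p = 0.432). The summed FPKM of 13 heart and striated muscle genes, 7 of them tested, ranged from 7.23 to 46.8 in silica and from 19.0 to 40.2 in air, so the groups overlapped. Of the list Mybpc2 rose by 0.51 and Alpk3 fell by 0.38, and Ckm and Csrp3 were at 0 in silica rat 4. Leaving out silica rat 4 or 5 gave 319 or 325 called genes. The part of airway and vein content in the other results was not tested.

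Genes of dividing cells rose in 7 of 10 tested members, with none lower and a median of 0.37. Mki67, the standard marker of proliferation, stood at 2.82, 2.89, 3.20, 3.94 and 4.17 FPKM in silica rats and at 1.14, 1.36, 1.17 and 1.5 in air rats. All silica rats were above all air rats and rats 4 and 5 were the highest, with a fold of 2.17 (1.12 ± 0.14, SE; limma adjusted p = 5.22e-08). Kif22, a motor that moves chromosomes, stood at 1.51, 1.03, 1.35, 2.32 and 1.72 FPKM in silica and 0.499, 0.702, 0.532 and 0.520 in air (0.95). Prc1, which bundles the microtubules of the spindle midzone, stood at 4.02, 4.03, 3.96, 3.86 and 4.86 against 2.27, 2.11, 1.96 and 2.41 (0.79). Neither gene had overlapping groups. Rises of genes of DNA synthesis and repair were smaller: Rrm1, the large subunit of ribonucleotide reductase, at 0.43, the helicase gene Blm at 0.40, the ligase gene Lig1 at 0.34 and the polymerase subunit gene Pold3 at 0.24. The call of Pold3 was lost in 10 settings, among them the omission of air rat 1 or 3 or of silica rat 1, 2, 4 or 5 (limma adjusted p = 0.0519 to 0.11).

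The promoters of the mitotic genes Mki67, Kif22 and Prc1 are shown because these members of the list rose most. Many genes that peak in mitosis carry the letters TTTGAA, known as the cell cycle genes homology region, downstream of CCAAT boxes. The 250 bases before each start are taken from RefSeq on the build GRCr8, at chr1:199952594-199952843 (minus strand) for Mki67, chr1:191080879-191081128 (minus strand) for Kif22 and chr1:143659231-143659480 (plus strand) for Prc1. Each reads 5′ to 3′ along the gene's strand, with capitals at TTTGAA and CCAAT on either strand, so that TTCAAA and ATTGG mark the opposite strand.
Mki67: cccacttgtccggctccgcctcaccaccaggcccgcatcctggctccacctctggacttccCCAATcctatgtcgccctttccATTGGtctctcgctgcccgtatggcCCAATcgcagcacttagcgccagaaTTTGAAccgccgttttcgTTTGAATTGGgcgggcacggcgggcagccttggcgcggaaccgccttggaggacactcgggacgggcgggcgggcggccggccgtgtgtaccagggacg
Kif22: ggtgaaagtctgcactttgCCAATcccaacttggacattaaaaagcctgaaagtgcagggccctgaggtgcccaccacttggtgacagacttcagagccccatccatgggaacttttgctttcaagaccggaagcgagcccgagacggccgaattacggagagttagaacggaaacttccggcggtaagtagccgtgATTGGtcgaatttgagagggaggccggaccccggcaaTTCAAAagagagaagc
Prc1: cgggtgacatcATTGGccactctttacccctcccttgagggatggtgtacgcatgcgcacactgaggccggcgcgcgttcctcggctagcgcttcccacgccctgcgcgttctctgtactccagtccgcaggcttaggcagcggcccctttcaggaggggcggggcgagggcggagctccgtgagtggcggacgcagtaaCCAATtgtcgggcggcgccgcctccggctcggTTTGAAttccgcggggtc
Mki67 holds TTTGAA at -117 to -112 and at -99 to -94 from the start, the second sharing 1 base with a CCAAT of the opposite strand. Kif22 holds it on the opposite strand at -16 to -11 and Prc1 on its own strand at -18 to -13. All 3 also hold CCAAT. Of 33469 rat promoters with the same window, 16.2% hold TTTGAA, 34.0% CCAAT and 5.87% both. Of the other members looked up, Rrm1 held CCAAT only, and Lig1 and Pold3 held neither. These matches are descriptions of letters, not of bound sites.

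**Figure D3:**
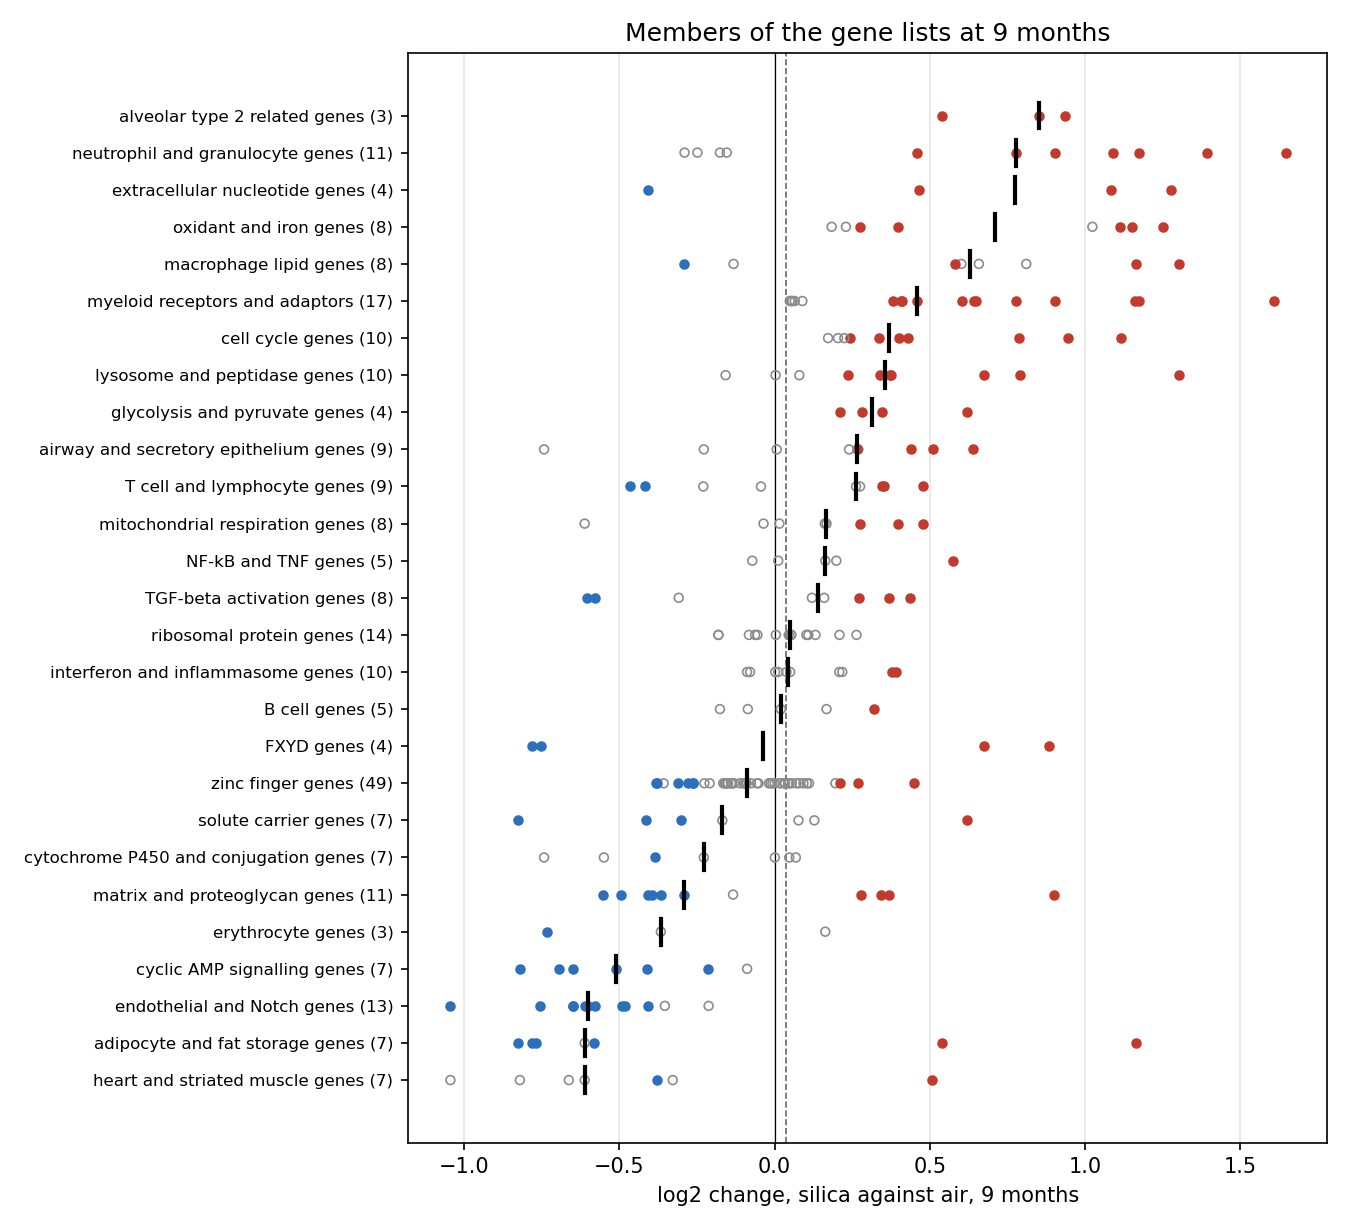
Log2 change in silica against air at 9 months for each tested member of the gene lists, with the number tested in parentheses. Red circles were called higher, blue circles called lower and open circles not called. Black ticks are list medians and the dashed line the median of all tested genes (0.038). List medians lie furthest to the right for type 2, granulocyte, extracellular nucleotide and oxidant genes. They lie furthest to the left for fat cell, heart and striated muscle, endothelial and cyclic AMP genes. Members of several of these lists, the fat cell list among them, lie on both sides.

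Among genes of vessels most tested members were lower. Of 13 tested endothelial and Notch genes 11 fell and none rose, with a median of -0.60, where 11.3% of all tested genes fell. Without air rats 1 and 3 the count was 7. Caveolae, the flask-shaped pits that crowd the membrane of capillary endothelium, were represented by Ehd2 and Prkcdbp. Ehd2, an ATPase at the neck of caveolae, stood at 43.7, 46.1, 44.4, 44.3 and 43.7 FPKM in silica rats and at 60.9, 64.9, 62.6 and 60.5 in air rats. Both groups were tight and did not approach each other (-0.48 ± 0.07, SE; limma adjusted p = 7.67e-07). Prkcdbp, the caveolar coat protein cavin-3, stood at 9.47, 9.63, 6.92, 7.59 and 7.23 FPKM in silica and 13.8, 16.3, 12.8 and 13.4 in air, also apart (-0.76 ± 0.11, SE; limma adjusted p = 8.44e-07). The list's summed FPKM was 125 to 145 in silica and 189 to 202 in air.

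Rasip1, needed for the lumen of blood vessels, fell by 0.60, from 19.3 ± 0.301 (SD, n = 4) to 12.6 ± 1.26 (SD, n = 5) FPKM. The Wnt and norrin receptor gene Fzd4 fell by 0.61 and Hey2, a Notch target of arteries, by 0.49 (limma adjusted p = 0.064 without air rats 1 and 3). Dll1, a Notch ligand, had the lowest change of any called gene, at 1.67, 3.13, 1.16, 1.99 and 2.57 FPKM in silica and 6.23, 2.79, 6.48 and 4.20 in air (-1.05 ± 0.23, SE; limma adjusted p = 3.48e-04). Air rat 2 lay within the silica range, so the groups overlapped, and Dll1 is named after its values were seen. Its change was -0.65 without air rats 1 and 3 (limma adjusted p = 0.0876). Lyve1, the hyaluronan receptor of lymphatic endothelium and some macrophages, fell by 0.65 but lost its call without air rats 1 and 3 (limma adjusted p = 0.0957). Adm, a vessel-relaxing peptide, stood at 1.93 to 2.68 FPKM in silica and 2.56 to 3.64 in air (-0.35, limma adjusted p = 0.0568), and was called lower after median centring and quantile normalization and without air rat 3 or silica rat 1 or 2 (0.033 to 0.0449). Rras, a small GTPase of vessels, had a change of -0.21 (limma adjusted p = 0.124), and was called lower after quantile normalization and with the 9-month groups alone (0.0312 and 0.0157).

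Genes of cyclic nucleotide signalling fell in 6 of 7 tested members, with none higher and a median of -0.51. They include an enzyme that makes the signal and phosphodiesterases that degrade it, and the signal itself was not measured. Ptgir, the receptor for prostacyclin, also on the endothelial list, stood at 2.40, 1.78, 1.85, 2.31 and 1.72 FPKM in silica and 3.40, 3.35, 3.35 and 3.57 in air. The air rats lay close together above all silica rats (-0.65 ± 0.13, SE; limma adjusted p = 1.71e-04). Akap12, a scaffold of protein kinase A, stood at 13.1, 16.4, 10.2, 12.9 and 14.4 FPKM in silica and 23.9, 22.8, 24.0 and 24.5 in air, a fall of 1.76-fold (-0.82 ± 0.13, SE; limma adjusted p = 3.77e-06). The phosphodiesterase genes Pde2a, Pde7b and Pde3b fell by 0.70, 0.51 and 0.22 and the adenylyl cyclase gene Adcy2 by 0.41. Pde3b lost its call without air rat 1 or 4 or silica rat 4 or 5 (limma adjusted p = 0.0508 to 0.0819), and Adcy2 without air rat 3 or 4 or silica rat 5 (0.0506 to 0.0584). Pde8a had a change of -0.09, short of the threshold. Ppp1r14a, an inhibitor of myosin phosphatase in smooth muscle that was on no list, fell by 0.76 from 27.5 ± 0.852 (SD, n = 4) to 16.2 ± 2.64 (SD, n = 5) FPKM.

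Fat cell and fat storage genes moved apart. Slc7a10, a neutral amino acid transporter of fat cells, stood at 5.17, 6.53, 4.13, 4.54 and 4.93 FPKM in silica and 9.17, 9.84, 8.69 and 9.34 in air, a fall of 1.77-fold (-0.83 ± 0.15, SE; limma adjusted p = 2.65e-05). The groups did not overlap. Acsm5, a medium-chain acyl-CoA synthetase, fell by 0.77, and Lipe, the hormone-sensitive lipase, by 0.58. Fxyd1 fell too, while Cebpa and Dgat2, already described, rose, so that 4 of 7 tested members fell and 2 rose (median -0.61). Plin1, the coat protein of fat cell lipid droplets, was too low to be tested.

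The FXYD family, small membrane proteins that tune the sodium pump, was split. Fxyd5, of epithelial and leukocyte membranes, rose from 14.1, 15.7, 12.1 and 19.9 FPKM in air to 27.4, 24.8, 28.0, 29.8 and 33.2 in silica (0.89 ± 0.15, SE; limma adjusted p = 1.51e-05). Fxyd3 rose by 0.68. Fxyd1, the form of heart and smooth muscle, stood at 14.7, 13.0, 10.2, 7.30 and 9.40 FPKM in silica and 21.0, 21.1, 15.1 and 17.9 in air (-0.78 ± 0.16, SE; limma adjusted p = 1.70e-04). Its groups were apart by a small margin, and silica rats 4 and 5 were the lowest. Fxyd7, with overlapping groups, fell by 0.75, a call lost without air rat 3 or silica rat 2, 3 or 5 (limma adjusted p = 0.0557 to 0.0681).

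Matrix genes changed in 10 of 11 tested members, 4 higher and 6 lower, with a median of -0.29. After quantile normalization 2 were higher and 6 lower. Cpxm2, a secreted carboxypeptidase-like protein, stood at 6.65, 6.99, 6.37, 9.06 and 7.33 FPKM in silica and 3.80, 4.25, 2.81 and 3.83 in air. It rose in every silica rat over every air rat (0.90 ± 0.13, SE; limma adjusted p = 1.07e-06). Fgfr2, a growth factor receptor of alveolar epithelium, rose by 0.34. Lama2, a laminin chain of basement membranes, fell by 0.55, from 4.30 ± 0.507 (SD, n = 4) to 2.80 ± 0.513 (SD, n = 5) FPKM. Serpinh1, the collagen chaperone, fell by 0.37, with 33.0 to 44.2 FPKM in silica and 48.1 to 53.5 in air.

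Genes that govern TGF-beta, the main driver of fibrosis, were called in both directions, 3 higher and 2 lower of 8 (median 0.14). Over all tested genes 19.5% were higher and 11.3% lower. After quantile normalization 1 was higher and 2 lower (median 0.06). Tgfb1 itself stood at 7.21, 5.99, 7.07, 5.2 and 6.14 FPKM in silica and 4.93, 4.75, 6.21 and 6.59 in air (0.16, limma adjusted p = 0.369). Its 9-month air level was 0.56 above that of the other air groups (limma adjusted p = 0.00208), a call lost without air rat 4. At 9 months its silica and air values overlapped. Ctgf, a target of TGF-beta, had 20.9 ± 2.31 (SD, n = 5) and 19.1 ± 0.556 (SD, n = 4) FPKM (0.12, limma adjusted p = 0.459). The proteins that hold latent TGF-beta were lower: Ltbp4, in the matrix, by 0.58 and Lrrc32, at the cell surface, by 0.60, the latter with limma adjusted p = 0.0714 without air rats 1 and 3. Both are also on the endothelial list. Igf2r, which binds latent TGF-beta and insulin-like growth factor 2 and carries lysosomal enzymes, rose by 0.44 while Igf1r, the signalling receptor for insulin-like growth factor, fell by 0.43. Furin, which cleaves the TGF-beta precursor, rose by 0.27, a call lost after quantile normalization (limma adjusted p = 0.107) and without air rat 2, silica rat 4 or silica rat 5 (0.0563 to 0.107).

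Lymphocyte genes showed no common direction. Of 5 tested B cell genes Swap70 rose (0.32, with limma adjusted p = 0.124 without air rats 1 and 3) and Cd22, an inhibitory receptor of B cells, had -0.09, short of the threshold. In the T cell list 3 of 9 rose and 2 fell, where 19.5% of all tested genes rose and 11.3% fell. Without air rats 1 and 3 only 1 of the list rose and none fell. Tagap, a gene of activated T cells, rose by 0.48, and Nkg7, of cytotoxic granules, fell by 0.42. Itgal (0.35), Coro1a (0.35), Il4r (-0.47) and Nkg7 missed the threshold without air rats 1 and 3 (limma adjusted p = 0.0920, 0.370, 0.0863 and 0.059). Nkg7 also missed it without air rat 1, 2 or 4 or silica rat 3 (0.0502 to 0.102). Interferon genes rose in 2 of 10, near the 19.5% of all tested genes, Ifitm1 by 0.39 and Isg20 by 0.38. Both missed the threshold without air rats 1 and 3 (0.16 and 0.113) and after quantile normalization (0.238 and 0.0675), which left 0 of 10. Among single rats, air rat 3 ended the calls of Coro1a, Ifitm1 and Isg20 (0.134, 0.0998 and 0.16), silica rat 2 those of Coro1a and Ifitm1 (0.0545 and 0.0512), silica rat 1 that of Coro1a (0.0512), and air rat 4 and silica rat 5 that of Isg20 (0.0707 and 0.0944).

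Of the metabolic lists, 4 of 4 glycolysis and pyruvate genes rose (median 0.31), led by Ldha, lactate dehydrogenase A, at 36.5 to 48.2 FPKM in silica and 24.3 to 30.0 in air (0.62 ± 0.11, SE; limma adjusted p = 1.19e-05). Mpc1, which carries pyruvate into mitochondria, rose by 0.35. The smaller rises of Aldoa (0.28) and Gpi (0.21) missed the threshold without air rats 1 and 3 (limma adjusted p = 0.309 and 0.274) and after quantile normalization, where Aldoa had 0.22 and Gpi 0.01 (0.0534 and 0.941), so that 2 of 4 were left. Single rats ended these calls too: air rats 2 and 3 and silica rat 5 for Aldoa (0.0524 to 0.104), and air rats 1 and 3 and silica rats 4 and 5 for Gpi (0.0780 to 0.0921). Mitochondrial respiration genes rose in 3 of 8, where 19.5% of all tested genes rose, with the electron transfer flavoprotein gene Etfb at 0.48. That count was 1 without air rats 1 and 3 and after quantile normalization. None of 14 tested ribosomal protein genes was called by limma (median 0.05). In the fit without air rats 1 and 3, 4 of them were called lower (median -0.11), and 1 was after quantile normalization or without air rat 3.

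Hemoglobin genes, which track the blood in a sample, were lower in part. Hbb-b1 stood at 88.8, 131, 102, 63.4 and 100.3 FPKM in silica and 137, 155, 139 and 210.1 in air. The groups came close but did not overlap (-0.73 ± 0.22, SE; limma adjusted p = 0.00852), and the adjusted p was 0.0531 without air rat 4. Hbb had overlapping groups (-0.37, limma adjusted p = 0.166). Of 3 tested erythrocyte genes 1 fell and none rose, with changes from -0.73 to 0.16 and a median of -0.37. After quantile normalization that median was 0.11. The values of Hbb and Hbb-b1 followed each other over libraries (r = 0.872), and the split of reads between them is uncertain.

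The clock genes Arntl and Dbp moved in opposite directions. Arntl encodes BMAL1, the activator of the circadian clock, and Dbp is an output gene that BMAL1 drives through CACGTG boxes. Arntl stood at 4.91, 4.72, 4.60, 4.63 and 5.07 FPKM in silica and 8.37, 6.98, 7.99 and 6.98 in air, and each group was narrow (-0.61 ± 0.12, SE; limma adjusted p = 1.22e-04). Dbp stood at 6.00, 6.19, 7.39, 8.11 and 5.05 FPKM in silica and 1.75, 4.01, 1.95 and 3.35 in air (1.15 ± 0.29, SE; limma adjusted p = 0.00179), and missed the threshold without air rats 1 and 3 (0.138). Both genes cycle over the day in many tissues, and the hour of collection is not given in the sources used here. Their promoters are shown for the elements through which the clock acts, chr1:176766078-176766327 (plus strand) for Arntl, RefSeq symbol Bmal1, and chr1:105312006-105312255 (plus strand) for Dbp, from RefSeq on GRCr8. Capitals mark CACGTG, to which BMAL1 binds, and AGGTCA, the core to which ROR and REV-ERB receptors bind, on either strand.
Arntl: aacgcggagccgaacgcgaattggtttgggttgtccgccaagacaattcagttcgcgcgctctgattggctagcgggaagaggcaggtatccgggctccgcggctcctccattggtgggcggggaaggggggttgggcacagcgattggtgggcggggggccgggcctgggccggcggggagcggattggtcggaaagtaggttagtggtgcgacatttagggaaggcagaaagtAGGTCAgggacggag
Dbp: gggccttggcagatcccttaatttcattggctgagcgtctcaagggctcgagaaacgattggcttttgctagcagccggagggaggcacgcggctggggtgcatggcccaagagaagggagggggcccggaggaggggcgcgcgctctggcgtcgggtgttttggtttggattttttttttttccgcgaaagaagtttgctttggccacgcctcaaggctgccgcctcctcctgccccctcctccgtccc
Arntl holds AGGTCA at -15 to -10, and Dbp holds neither motif in this window. Of all promoters, 14.1% hold AGGTCA and 5.59% CACGTG. No match says only that these letters are not in this window.

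The 9-month response was set beside the other times, each with its own air group. The share of tested genes called was 8.84% at 1 month, 18.2% at 3, 27.6% at 6, 30.8% at 9, 23.6% at 12 and 15.3% at 18 months. The rank of 9 months at the top rests on 1 library: without silica replicate 3 of 12 months, 457 genes (35.8%) were called at 12 months and 412 (32.2%) at 9 months. That library correlated with its group at r = 0.928 to 0.949, where its other 4 members gave 0.948 to 0.973. Of the 249 genes higher at 9 months, 190 were also called higher at 6 months, 76.3% of the 9-month and 70.1% of the 6-month list (21.2% of tested genes were called higher at 6 months). For the 144 lower genes the overlap with 6 months was 56 (38.9% and 68.3%), with 12 months 72 (50.0% and 62.1%) and with 1 month 1 gene (0.694% and 20%). Called lower were 6.42% of tested genes at 6, 9.08% at 12 and 0.391% at 1 month. At no other time were 36 of the higher and 53 of the lower genes called, which does not show that they differed between times.

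No gene passed the threshold when the 9-month difference was tested against the mean of the 5 others (limma, 0 of 1278, smallest adjusted p = 0.0836, 158 genes or 12.4% at an unadjusted p under 0.05). The same held against 6 months (0 called, 72 or 5.63% unadjusted) and 12 months (0 called, 78 or 6.10% unadjusted). Of the 158, 98 were more negative at 9 months and 60 more positive. The smallest p belonged to Prkcdbp, Esr1 and Inpp5a, a phosphatase of inositol signals, which are named after their values were seen. Esr1 changed at 9 months by 1.32 ± 0.32 (SE) more than on average at the other times, Prkcdbp by -0.50 ± 0.12 and Inpp5a by -0.33 ± 0.081. Without silica replicate 3 of 12 months these 3 genes passed (limma adjusted p = 9.03e-05, 0.0487 and 0.0288). Without silica rat 2 they passed with Zfp52 (adjusted p = 0.0365 for the 3 and 0.0477 for Zfp52).

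The course over time shows where these genes stood. Esr1 had log2 changes of 1.68 at 6, 2.57 at 9 and 2.40 at 12 months. Prkcdbp had -0.26, -0.76 and -0.55 at these times and Inpp5a -0.22, -0.51 and -0.33. Ptgir had -0.33, -0.65 and -0.11, Akap12 -0.49, -0.82 and -0.54, and Serpinh1 -0.06, -0.37 and -0.12. All these falling genes are among those with the smallest p against the other times, so their choice favours a lowest value at 9 months. Cd177 and Lilrb4 were higher at 6 months, at 1.84 and 1.87, than at 9, at 1.65 and 1.61, without a tested difference past the threshold. The median of the endothelial list was -0.16 at 3 months, -0.33 at 6, -0.60 at 9, -0.37 at 12 and -0.18 at 18 months.

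**Figure D4:**
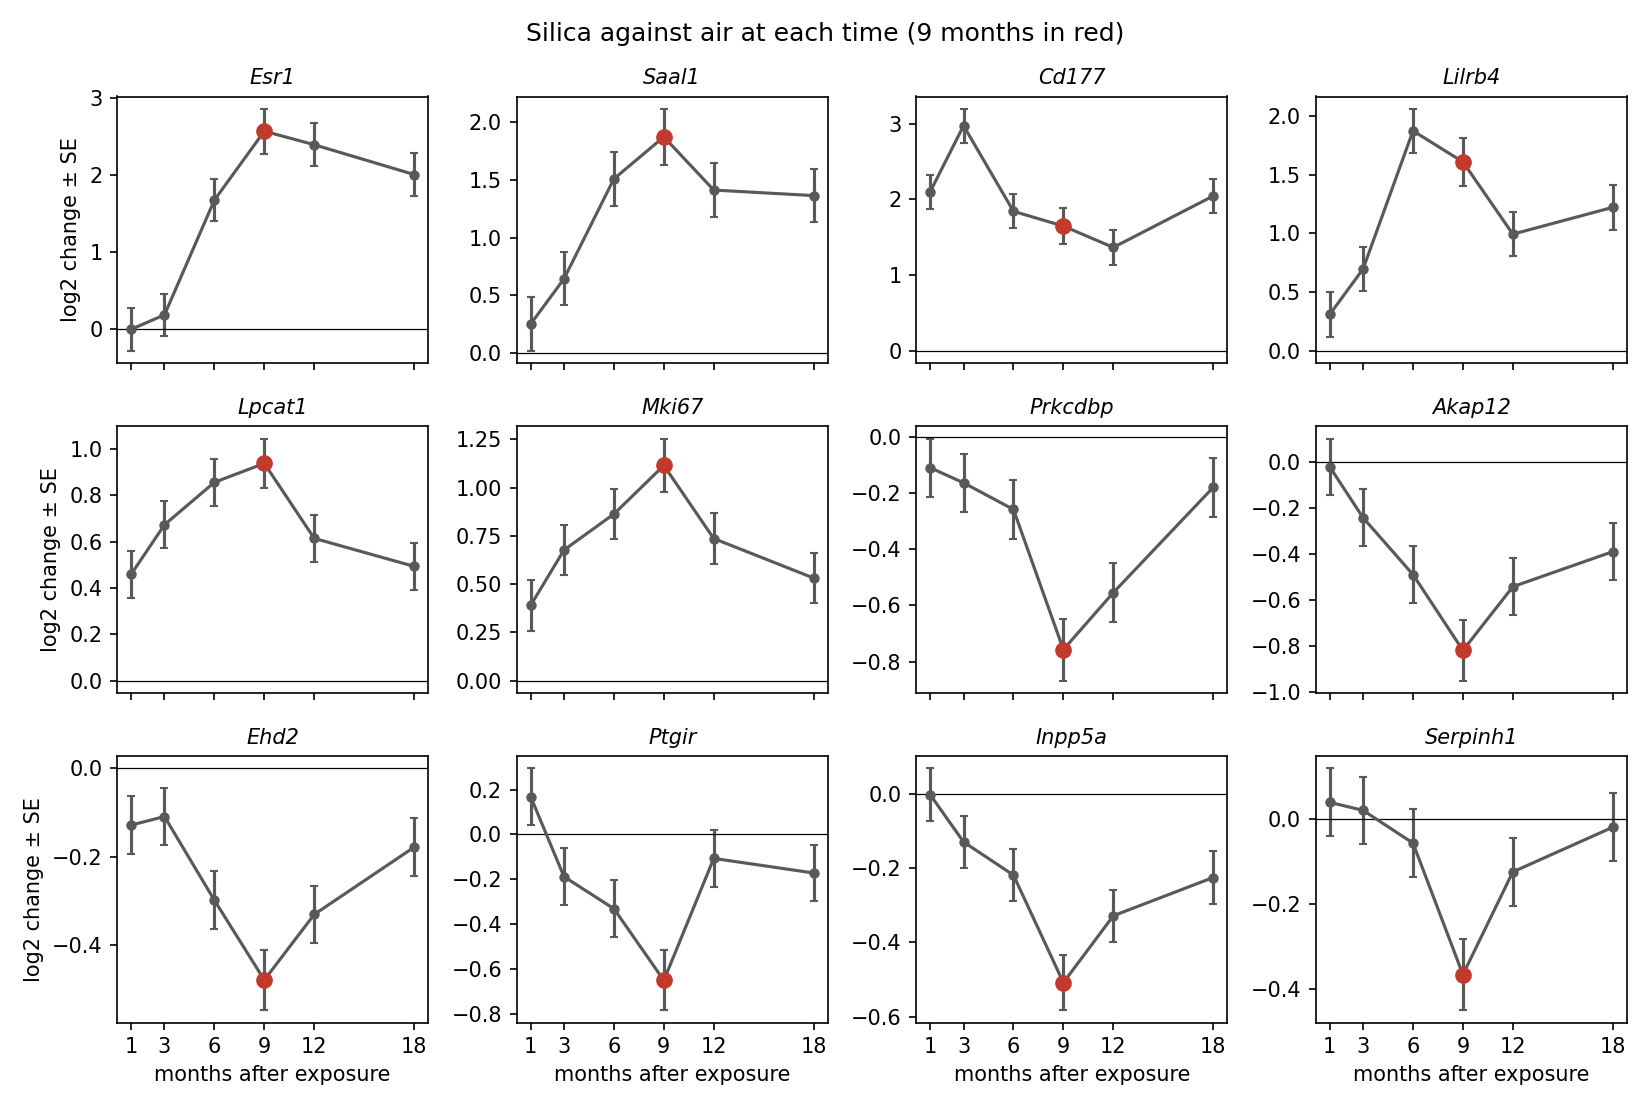
Log2 change in silica against air, with 1 SE to either side, at the 6 times from 1 to 18 months after exposure for 12 genes, 6 that rose and 6 that fell at 9 months. The red point is 9 months. Esr1 and Saal1 are lowest at 1 month and reach 2.57 and 1.87 at 9 months, and Prkcdbp, Akap12, Ehd2, Ptgir, Inpp5a and Serpinh1 have their lowest point at 9 months. The 6 that fell are among the genes with the smallest p against the other times, so their choice favours that low point.

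The air group of 9 months was also set against the air groups of the other times, whose rats differed in age at collection. Age and time of collection cannot be told apart in this contrast. Air at 9 months against the mean of the other air groups gave 5 called genes (0.391%), 178 (13.9%) at an unadjusted p under 0.05. The 5 were LOC103691058, the entry that follows Cd177, at 0.85 ± 0.18 (SE; limma adjusted p = 0.00940), Tgfb1 at 0.56 ± 0.10 (SE; limma adjusted p = 0.00208), Ndufa3 at 0.53, Sipa1l3 at 0.37 and Nipa2 at -0.26. Ndufa3, a subunit of respiratory complex I, stood at 32.1 FPKM in air rat 4 and 13.8 to 14.6 in the other air rats. Without air rat 4 none of the 5 was called, and without air rat 2 there were 20 called genes. For Cd177 the 9-month air level was 0.65 above other air, short of the threshold (limma adjusted p = 0.115). Without silica replicate 3 of 12 months 8 genes were called, among them Cd177 (0.65, adjusted p = 0.0336) and its copy LOC100909700 (0.61, adjusted p = 0.0416).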

How the data were processed

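Lung RNA was sequenced in 1 library per rat, per the labels' protocols, after miRNeasy isolation with DNase, ribosomal RNA depletion with Ribo-Zero Gold and a TruSeq stranded kit. Cufflinks 2.1.1, Bowtie2 2.2.9, TopHat2 2.0.9, Trimmomatic 0.35 and bcl2fastq 2.19 are listed per the submitters' processing notes, without roles, and no genome build was given in the sources used here. FPKM per gene name were deposited by the authors, normalized for length and mapped total, and the table ends within an entry that was left out. FPKM keep no counts, so depth is known only in relative terms, from nonzero values of rarely detected entries aligned to each entry's median. Of 1997 such values in 261 entries, 63.7% lay within log2 0.1 of that median.

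Tests used log2(FPKM + 0.5) in limma (3.58.1, R 4.3.3) with a trend in the empirical Bayes step and all 12 groups in 1 fit (47 residual degrees of freedom, prior 3.41) and no covariate, since the labels give no batch. The fit was tested on simulated data. Alternatives were other pseudocounts, filters and scalings, the 9-month groups alone, and each 9-month library left out. The labels describe separate rats, so the spread behind each p-value is that between rats.

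The genes, lists and tests were chosen with earlier results of these data known. Named genes are the 14 largest rises and 14 largest falls among called genes with a symbol, a mean FPKM of at least 1 over the 9 libraries and no overlap, up to 4 called members with the smallest p of each list, and members with a defining role. Other genes mentioned are further list members, or were named after their values were seen. Promoters and names came from RefSeq on GRCr8 (8 of 9 genes looked up were found, 8 motifs searched), and no coordinates were joined to the FPKM. List medians and counts are descriptions without a test. The value of a B cell list member is not reported here.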

Additional observations from a re-analysis of the deposited data

Results flagged for a closer look

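In each group of 4 or 5 rats, the highest or lowest value was compared with its nearest neighbour by Dixon's ratio at the 95% level. Of 202 groups of values examined 15 stood out, where chance gives about 1 in 20. Among genes that rose, Esr1 was low in air rat 2 at 0.334 FPKM (nearest 0.494) and Itgam low in air rat 3 at 3.03 (nearest 4.17). Kif22 was high in air rat 2 at 0.702 FPKM (nearest 0.532), Mybpc2 low in air rat 2 at 0.492 (nearest 0.634) and Prc1 high in silica rat 5 at 4.86 (nearest 4.03). Swap70 was high in silica rat 1 at 4.19 FPKM (nearest 3.71), Ifitm1 high in silica rat 2 at 45.0 (nearest 35.8) and Isg20 high in silica rat 5 at 14.3 (nearest 11.7).

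Among genes that fell, Ppp1r14a was high in silica rat 2 at 20.8 FPKM (nearest 15.6), Lrrc32 high in silica rat 2 at 3.71 (nearest 2.64), Nell1 high in air rat 2 at 2.84 (nearest 2.05) and Lyve1 low in air rat 2 at 17.7 (nearest 25.3). Ndufa3 was high in air rat 4 at 32.1 FPKM (nearest 14.6). Of the library measures, LOC102553223 stood at 25818 FPKM in air rat 3 (nearest 1788), and the relative depth of air rat 1 was 0.432 (nearest 1.12). Air rat 2 supplied 5 of the 15 values and silica rat 2 another 3.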

How the results depend on the processing

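The 393 calls of silica against air became 392 and 389 with pseudocounts of 1 and 0.1, 393 without a filter, 408 after median centring, 404 after quantile normalization and 330 when the 9-month groups were fitted alone. With a filter at a mean FPKM of 5 there were 237 calls, as fewer genes were tested. Leaving out 1 rat of the 9-month groups gave 319 to 404. After seeing the data, fits without air rats 1 and 3 (265) and without silica replicate 3 of 12 months (412) were added. The 9-month difference against the mean of the other times gave 0 to 4 calls with 1 rat left out, 4 without silica rat 2 and 3 without silica replicate 3 of 12 months. Against 12 months it gave 0 to 2, the 2 without air rat 1, and 0 without that 12-month library, and against 6 months 0 in every setting run. Air at 9 months against other air, 5 calls, gave 9 without a filter, 3 at a mean FPKM of 5, 9 after quantile normalization, 8 without silica replicate 3 of 12 months and 0 to 20 with 1 air rat left out.

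Of 94 called genes named by the rules, 68 kept their call in every setting they were tested in (17 for 57 genes, and 16 for 37 whose mean FPKM is under 5), and of the 28 largest rises and falls 25 did. Ndufa3, at -0.04 in the main comparison, ranged from -0.14 to 0.25 with 1 rat left out and was positive without air rat 4 (0.25). No paired analysis was possible because replicate numbers were given in order of deposit and pair no rats. Depth, known only in relative terms, limits low genes most.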

Other observations

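Some gene families of chromosome 1 are not described above. Of 49 tested zinc finger genes, a family rich in transcriptional repressors, 3 rose and 6 fell (median -0.09), where 19.5% of all tested genes rose and 11.3% fell. After median centring 2 rose and 10 fell, and after quantile normalization 2 and 12. Zfp874b rose from 1.16 ± 0.0412 (SD, n = 4) to 1.80 ± 0.387 (SD, n = 5) FPKM (log2 0.45) and Zfp180 fell from 6.19 ± 0.392 (SD, n = 4) to 4.90 ± 0.331 (SD, n = 5) (log2 -0.31). Of 7 tested solute carrier genes 1 rose and 3 fell, and 1 and 1 without air rats 1 and 3, where Slco3a1 and Slc18b1 missed the threshold (limma adjusted p = 0.259 and 0.0562). Slc1a5, a glutamine transporter of growing cells, rose by 0.62, from 1.77 to 2.40 FPKM in air rats to 3.04 to 4.34 in silica rats. Bcl3, a nuclear partner of NF-kB, rose by 0.57 as the only called gene of 5 tested on its list, with 2.93 to 4.23 FPKM in silica and 1.94 to 2.43 in air. Nova2, a splicing factor of neurons and endothelium, fell by 0.67, with 1.03 to 1.28 FPKM in silica and 1.64 to 2.50 in air. Its 9-month air level was 0.46 above that of the other air groups (limma adjusted p = 0.0567), a difference called without air rat 2 (0.56, adjusted p = 0.0211) and in 3 other settings.

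The widest changes without a call belonged to transfer RNA entries, Trnae-cuc at 3.36 ± 1.70 (SE) and Trnal-uaa at -2.78 ± 1.66, with limma adjusted p = 0.131 and 0.210.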
